A study of Mus musculus with 15 samples.

Results

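The AP-1 and BATF transcription factors described here are 9 genes, found in the tables by their symbols: Fos, Fosb, Fosl2, Jun, Junb, Jund, Batf, Batf3 and Atf3. All 9 were among the 17493 genes of the count tables, and all 9 passed the filter on low counts that left 10831 genes for testing. AP-1 is a dimer of basic leucine zipper (bZIP) proteins. JUN proteins pair with each other or with FOS proteins, and FOS proteins need a JUN partner to bind DNA. In T cells, signals from the T cell receptor and from costimulation reach AP-1 through MAP kinases, and AP-1 binds together with NFAT at cytokine genes such as Il2. BATF and BATF3 lack the transactivation domain of FOS, pair with JUN proteins and bind with IRF4 or IRF8 at composite elements. Fos, Fosb, Jun, Junb and Atf3 are also immediate early genes, whose transcripts rise within minutes of many stimuli, including tissue dissociation and cell handling.

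RNA was measured in 15 bulk libraries of CD8+ OT-I T cells from spleen and lymph nodes of female OT-1 mice (C57BL/6 background), whose transgenic receptor recognises an ovalbumin peptide on MHC class I. The 5 groups had 3 libraries each: untreated cells at 0 h, cells given immunofilaments (IF) for 8 h or 22 h, and cells given dendritic cells (DC) for 8 h or 22 h. Immunofilaments are synthetic filaments that carried SIITFEKL-loaded MHC and interleukin-2 (IL-2), at 5 ng/ml. The dendritic cells were grown with Flt3 ligand and pulsed with SIITFEKL, and 20000 of them were added to each well of 50000 T cells. The labels name IL-2 for the immunofilaments and not for the dendritic cell wells, so the stimuli differ in the form of the antigen, in IL-2 and in the presence of another cell. Ages were not given in the sources used here, and the labels number the replicates Don1 to Don3 in every group without saying what Don stands for. Where a number is not a separate animal, p-values measure only the spread between these samples, which may be technical. All libraries came from cells sorted as viable, CD8+ and CD103-. No untreated cells cultured for 8 h or 22 h are among the libraries, so stimulus and time in culture cannot be told apart in any comparison with 0 h.

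Total counts ran from 2892874 to 19806730 per library. Expression is given as CPM, a gene's counts divided by the library's total and put on a common scale, after scaling by the trimmed mean of M values (TMM). The assay counts tags near the 3′ end, so levels are compared between groups and not between genes. A gene is called changed where edgeR's quasi-likelihood test gave a Benjamini-Hochberg adjusted p below 0.05 over all 10831 genes. All 10 CD8 T cell markers found in the tables exceeded 3 counts in every library. Their summed level was 9410 to 10314 CPM at 0 h and 4358 to 7114 CPM in stimulated libraries, and 7, 9, 5 and 6 of the 10 were called lower than at 0 h in IF 8 h, DC 8 h, IF 22 h and DC 22 h. Markers of dendritic cells, 20 genes summed without Batf3, came to 1074 to 1918 CPM at 0 h, 648 to 830 and 667 to 945 CPM with IF at 8 h and 22 h, and 1477 to 1670 and 1011 to 1236 CPM with DC. Single genes among them went both ways. Zbtb46 was at 0 in all 0 h and IF 8 h libraries. The mean of Fscn1 was 2.31 CPM at 0 h, 0.489 CPM at IF 8 h and 142 CPM at DC 8 h. At 22 h it was 23.7 CPM with IF and 85.1 CPM with DC. The mean of Xcr1 was 24.1 CPM at 0 h, 3.54 CPM at IF 8 h and 2.86 CPM at DC 8 h. At 22 h the mean of Xcr1 was 1.2 CPM with IF and 0.198 CPM with DC. Of 16 dendritic cell markers tested, 6, 0, 4 and 4 were called lower than at 0 h in IF 8 h, DC 8 h, IF 22 h and DC 22 h. In the same order 1, 3, 2 and 3 were called higher. Macrophage markers summed to at most 4.19 CPM. Replicates 2 and 3 of IF 22 h stood apart in mitochondrial rRNA, with 0.179% and 0.146% of their counts against 1.82% to 4.49% elsewhere.

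The sequences just upstream of 3 members, Fos, Jun and Junb, are printed first. Fos fell after both stimuli, and Jun and Junb differed between the stimuli at 22 h. A link of these sequences to the levels was not tested. Each is the 250 bases before the RefSeq start site (GRCm38.p6), 5′ to 3′ on the gene's own strand. Capitals mark matches to TGACG, the core of the cAMP response element (CRE), or to TGACNTCA, a near-palindromic form of that element that ATF and JUN dimers can bind. Fos lies at chr12:85473640-85473889 on the plus strand, Jun at chr4:95052223-95052472 on the minus strand and Junb at chr8:84978749-84978998 on the minus strand.
Fos: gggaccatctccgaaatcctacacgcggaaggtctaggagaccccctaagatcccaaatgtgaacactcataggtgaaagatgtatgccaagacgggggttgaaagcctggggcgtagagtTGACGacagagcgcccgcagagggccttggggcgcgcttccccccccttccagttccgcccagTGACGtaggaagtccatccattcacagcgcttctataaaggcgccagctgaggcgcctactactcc
Jun: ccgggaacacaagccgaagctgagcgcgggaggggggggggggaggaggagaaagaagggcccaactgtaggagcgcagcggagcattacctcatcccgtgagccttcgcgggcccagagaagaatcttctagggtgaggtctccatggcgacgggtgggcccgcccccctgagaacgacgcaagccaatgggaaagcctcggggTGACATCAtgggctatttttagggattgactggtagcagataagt
Junb: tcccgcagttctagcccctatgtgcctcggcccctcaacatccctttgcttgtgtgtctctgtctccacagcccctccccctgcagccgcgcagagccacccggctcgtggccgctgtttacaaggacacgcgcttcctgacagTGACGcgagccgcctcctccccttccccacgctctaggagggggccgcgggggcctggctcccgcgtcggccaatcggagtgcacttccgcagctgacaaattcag

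Short stretches round the TGACG match follow for Fosb at chr7:19310091-19310115 on the minus strand and Batf at chr12:85686612-85686636 on the plus strand. They show the same 5 letters in a second FOS gene and in the one member that rose.
Fosb: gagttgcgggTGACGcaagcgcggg
Batf: tctaacttgtTGACGtttccgccca

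All 9 members had an upstream sequence in the RefSeq table, and 7 motifs were searched on both strands. TGACG, the CRE core, was found in Fos at -129 and -66, counted back from the start site, in Fosb at -60, in Junb at -106, in Batf at -98 and in Atf3 at -7, that is in 5 of 9 members against 17.8% of 32841 promoters of the same length. TGACNTCA, the CRE-like palindrome, was found in Jun alone, at -45, against 7.49% of promoters. TGACG and TGACNTCA overlap where the open letter is G, which was not so in Jun. TGANTCA, the AP-1 consensus that FOS-JUN dimers bind, was in none of the 9 and in 6.75% of promoters. The MEF2 motif was in Jun and Atf3, against 2.92% of promoters. The TATA box motif TATAAA was in Fos, at -33, against 12.4%. TTCNNNGAA, the STAT motif, was in Batf3 against 7.02%. The CArG box of serum response factor was in none of the 9 windows and in 1.47% of promoters. These windows depend on the start site used, and GENCODE vM21 begins Jund at 70698949 on chromosome 8, where its RefSeq window ends at 70697738. The windows of Fosl2, Batf3 and Atf3 lie inside the GENCODE genes, and those of Fosb and Batf run into theirs. Fosl2 begins at 32135801 and its window at 32136222. Batf3 begins at 191097847 and its window at 191098164. Atf3, on the minus strand, reaches to 191218039 and its window to 191183583. A match describes letters only, and the count tables hold no measurement of binding.

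**Figure D1:**
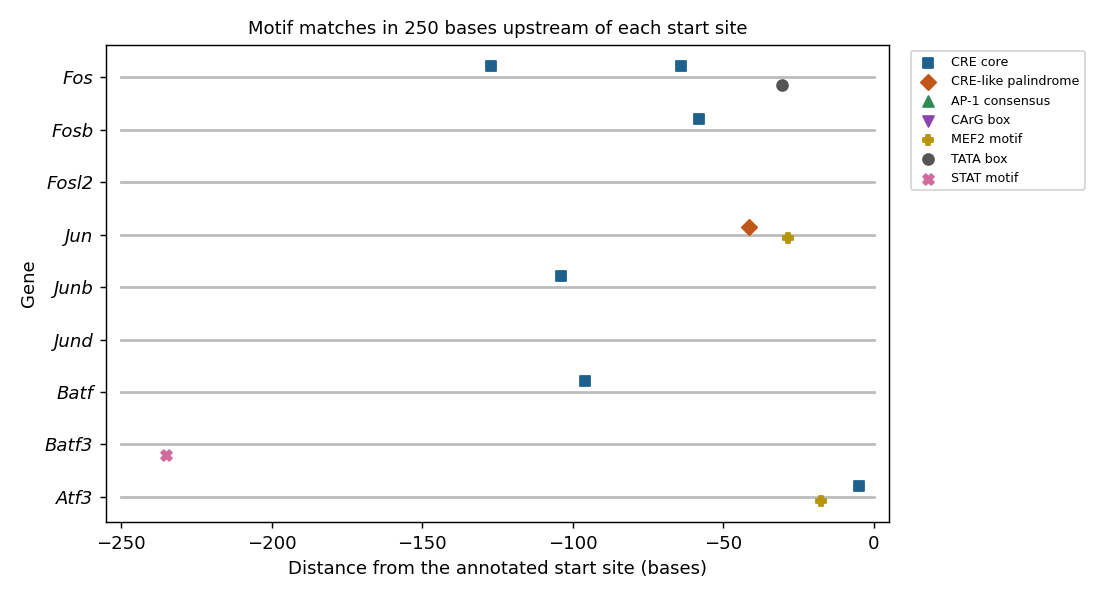
Matches to 7 motifs in the 250 bases upstream of each member's RefSeq start site. The x axis is the distance from the start site in bases, each grey line is 1 gene and each symbol 1 match, with the motifs named as in the paragraph on them. The CRE core falls in 5 of the 9 genes, while Fosl2 and Jund have no match to any of the 7. The windows depend on the start site used, and those of Fosl2, Jund, Batf3 and Atf3 do not end at the GENCODE start.

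Transcripts of the FOS genes Fos and Fosb fell after either stimulus at both times, Fos from 1423 to 1717 counts a library at 0 h to 4 to 59 counts in stimulated libraries. Fos, the founding FOS protein, was at 219, 257 and 400 CPM in the 3 untreated libraries. It was at 8.56, 4.97 and 2.14 CPM with IF at 8 h and at 4.56, 7.33 and 1.91 CPM with DC at 8 h. At 22 h it was at 2.74, 3.47 and 2.91 CPM with IF and at 0.455, 1.88 and 1.54 CPM with DC. Every stimulated library thus lay far below every untreated one, and replicate 3 was the highest of the untreated libraries. The log2 fold change of Fos against 0 h was -5.74 ± 0.48 (SE) for IF 8 h and -5.97 ± 0.47 for DC 8 h. At 22 h it was -6.58 ± 0.49 for IF and -7.78 ± 0.53 for DC, and the adjusted p was at most 2.40e-06 in these 4 comparisons. Fosb, a close relative of Fos with the same partners, was at 62.4, 61.3 and 141 CPM at 0 h, between 0 and 5.63 CPM at 8 h and between 0 and 3.47 CPM at 22 h. Its fold changes ran from -4.65 ± 0.85 on the log2 scale for IF 8 h (adjusted p = 0.00329) to -7.56 ± 1.01 for DC 22 h (adjusted p = 0.000323). The DC 22 h value rests on 13 counts, all of them in replicate 2. Without IF 8 h replicate 1 the Fos change in IF 8 h was -6.40, and without DC 8 h replicate 2 the Fosb change in DC 8 h was -7.11, both still called.

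Fosl2, which encodes FRA-2, moved less than Fos and Fosb. It was at 23.6, 22.8 and 46.3 CPM at 0 h, at 15.3, 21.9 and 24.4 CPM in IF 8 h and at 14.3, 12.0 and 12.6 CPM in DC 8 h. At 22 h it was at 8.69, 17.2 and 18.7 CPM with IF and at 5.12, 10.2 and 7.69 CPM with DC. The IF 8 h libraries overlapped the untreated ones, and the other 3 groups did not. Fosl2 fell by 1.24 ± 0.34 on the log2 scale in DC 8 h (adjusted p = 0.0379) and by 2.00 ± 0.35 in DC 22 h (adjusted p = 0.00223). With IF the log2 change was -0.59 ± 0.35 at 8 h (adjusted p = 0.329) and -1.04 ± 0.34 at 22 h (adjusted p = 0.0842). The 22 h value passed the threshold with the replicate number as a block (0.0486), with DESeq2 (0.0380) and with no filter on low counts (0.0268). Without replicate 3 of the untreated cells, the Fosl2 change in DC 8 h was -0.83 with an adjusted p of 0.210, and it also missed the threshold without any 1 of the 3 DC 8 h libraries (adjusted p = 0.0843, 0.123 and 0.0946).

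**Figure D2:**
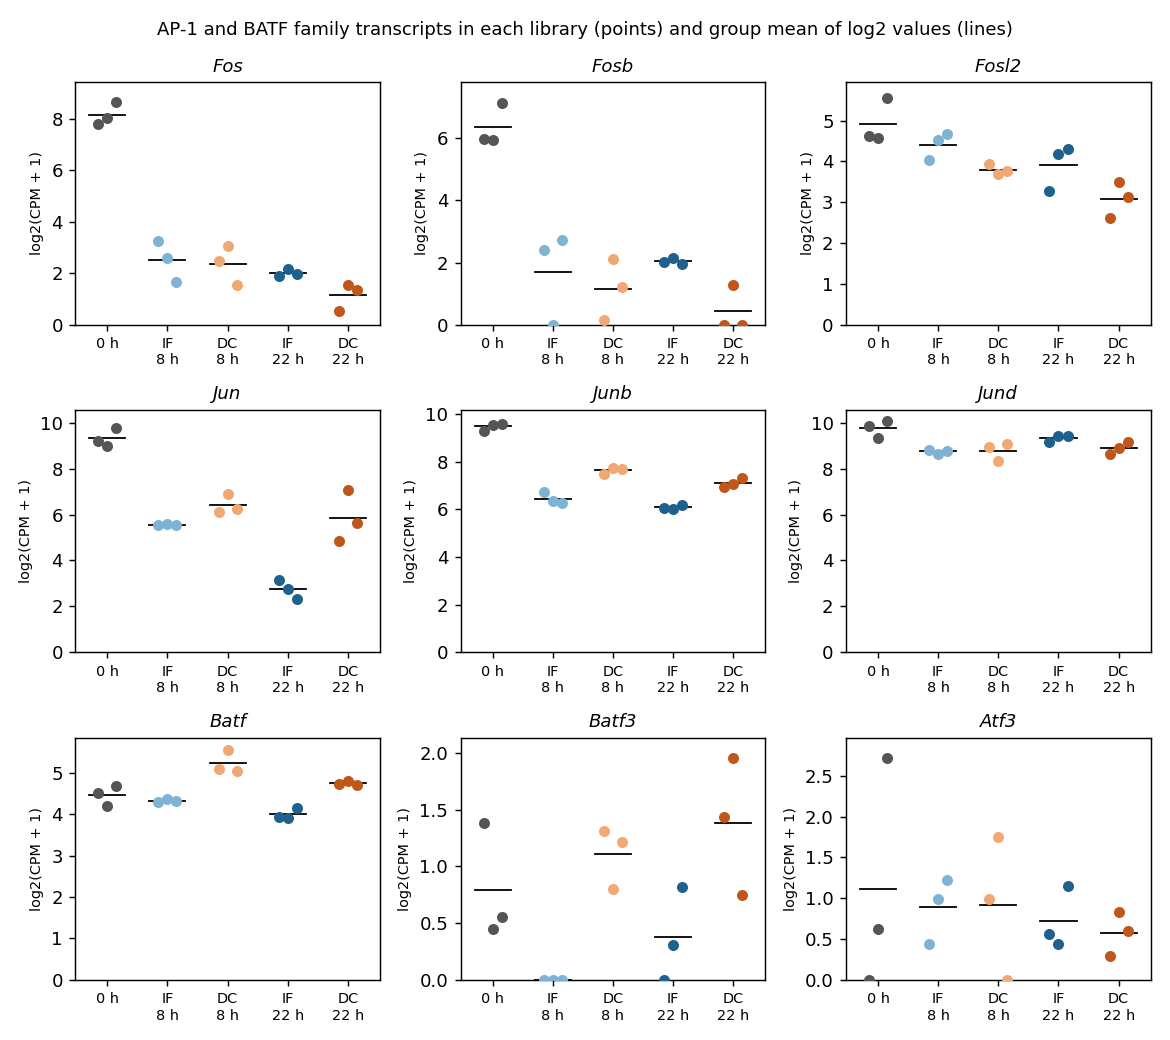
Level of each of the 9 genes as log2(CPM + 1) on the y axis, by group on the x axis, with 1 point for each library and a line at the group mean of the log2 values. The untreated libraries lie above all others for Fos, Fosb, Jun and Junb, while Jund and Batf span narrow ranges and no library of Batf3 or Atf3 exceeds 5.59 CPM.

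Among the JUN genes, Jun and Junb fell after both stimuli and Jund fell least. Jun, the partner of FOS proteins for which the family is named, was at 592, 512 and 881 CPM at 0 h. With IF it was at 45.9, 47.7 and 45.3 CPM at 8 h and at 7.74, 5.74 and 4.03 CPM at 22 h. With DC it was at 69.1, 117 and 75.3 CPM at 8 h and at 28.2, 135 and 48.9 CPM at 22 h. No stimulated library reached the untreated range, and at 22 h all 3 IF libraries lay below all 3 DC libraries. Against 0 h the log2 fold change was -3.84 ± 0.45 for IF 8 h, -2.92 ± 0.43 for DC 8 h, -6.85 ± 0.53 for IF 22 h and -3.22 ± 0.44 for DC 22 h, with adjusted p of at most 0.000563. Without DC 22 h replicate 2 the DC 22 h change was -4.07. Jun shares 232 of its 3189 exonic bases with the antisense gene Junos in GENCODE vM21. The use of strand in counting is not given in the sources used here, so reads over the shared bases cannot be told apart.

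Junb, a JUN protein with weaker activating function on many AP-1 sites, was at 626, 753 and 777 CPM at 0 h. With IF it was at 105, 79.9 and 75.5 CPM at 8 h and at 66.1, 64.3 and 71.0 CPM at 22 h. With DC it was at 176, 215 and 206 CPM at 8 h and at 123, 132 and 160 CPM at 22 h. The 5 groups did not overlap for Junb, in the order 0 h, DC 8 h, DC 22 h, IF 8 h, IF 22 h from high to low. Its log2 fold change against 0 h was -3.05 ± 0.18 for IF 8 h, -1.85 ± 0.17 for DC 8 h, -3.42 ± 0.18 for IF 22 h and -2.38 ± 0.17 for DC 22 h, with adjusted p of at most 8.58e-06. Junb shares 173 exonic bases with Prdx2 on the opposite strand.

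Jund, which is expressed in resting cells of many kinds, stayed within a range of a few fold in every library. It was at 923, 650 and 1066 CPM at 0 h, at 453, 397 and 440 CPM in IF 8 h and at 493, 320 and 530 CPM in DC 8 h. At 22 h it was at 565, 685 and 675 CPM with IF and at 395, 470 and 575 CPM with DC. The IF 22 h libraries overlapped the untreated range and the other 3 stimulated groups lay below it. Jund fell by 1.03 ± 0.21 on the log2 scale in IF 8 h (adjusted p = 0.00702), by 0.97 ± 0.21 in DC 8 h (adjusted p = 0.00879) and by 0.87 ± 0.21 in DC 22 h (adjusted p = 0.0161). In IF 22 h the change was -0.45 ± 0.21 (adjusted p = 0.224). Without replicate 3 of the untreated cells the adjusted p of Jund was 0.0515 for DC 8 h and 0.0928 for DC 22 h, and the DC 22 h call was also lost without untreated replicate 1 (0.0595) or DC 22 h replicate 1 (0.0797). Jund shares 877 exonic bases with the antisense gene Gm11175.

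Batf, whose protein pairs with JUN proteins and cooperates with IRF4 in activated T cells, was the 1 member that rose in any comparison with 0 h. It was at 21.9, 17.3 and 24.7 CPM at 0 h, at 18.7, 19.6 and 19.0 CPM in IF 8 h and at 33.2, 45.8 and 32.3 CPM in DC 8 h. At 22 h it was at 14.4, 14 and 16.9 CPM with IF and at 25.8, 27.0 and 25 CPM with DC. The DC libraries lay above the untreated range at both times and the IF 22 h libraries below it, while the IF 8 h libraries lay inside it. The log2 fold change was 0.80 ± 0.20 for DC 8 h (adjusted p = 0.0244) and 0.29 ± 0.20 for DC 22 h (adjusted p = 0.435). For IF it was -0.16 ± 0.21 at 8 h (adjusted p = 0.710) and -0.49 ± 0.21 at 22 h (adjusted p = 0.183). The DC 8 h call was lost without untreated replicate 1 (adjusted p = 0.0702), untreated replicate 2 (0.120) or DC 8 h replicate 2 (0.134). It was also lost with no filter on low counts (adjusted p = 0.0661), with only the groups compared (0.0584) and with counts thinned to 1 depth (0.0895).

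Batf3 and Atf3 were near the detection limit throughout. Batf3, a bZIP factor needed for the CD103+ and CD8+ lineage of dendritic cells and also expressed in activated T cells, had 11, 2 and 2 counts at 0 h and 0 counts in all 3 IF 8 h libraries. It had 15, 6 and 9 counts in DC 8 h, 0, 2 and 15 counts in IF 22 h and 15, 26 and 8 counts in DC 22 h. At 8 h the highest Batf3 level with IF was 0 CPM and the lowest with DC was 0.745 CPM (adjusted p = 0.269), and 3 counts, taken as the floor, correspond to 0.535 to 0.995 CPM in the IF 8 h libraries. The summed dendritic cell markers also differed at 8 h, at 648 to 830 CPM in IF 8 h and 1477 to 1670 CPM in DC 8 h. At 0 h their sum was 1074 to 1918 CPM, where Batf3 had 11, 2 and 2 counts. Ccr7 and Irf8 made up 253 and 138 CPM of the sum on average in IF 8 h. In DC 8 h they made up 328 and 132 CPM. The part of dendritic cells in the Batf3 counts was not tested. The sort left out CD103+ cells. Atf3, a stress-inducible repressor, had 0, 3 and 24 counts at 0 h, between 0 and 19 at 8 h and between 2 and 24 at 22 h. The 24 untreated counts were in replicate 3. Neither gene was called in any comparison, with adjusted p from 0.109 to 0.989, and no fold change is given because groups lie at or near 3 counts.

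Counted over the 9 members, 5 fell and 0 rose in IF 8 h against 0 h, where 7.76% of all genes tested were called and 4.72% fell. In DC 8 h 6 fell and 1 rose, where 6.82% of all genes were called, 4.07% lower and 2.75% higher. In IF 22 h 4 fell (6.08% of all genes called, 3.44% lower), and in DC 22 h 6 fell (7.76% called, 4.35% lower). Leaving out 1 library moved the number of all genes called from 840 to between 419 and 1124 in IF 8 h, from 739 to between 404 and 1052 in DC 8 h, from 658 to between 283 and 947 in IF 22 h, and from 840 to between 454 and 984 in DC 22 h. The lowest were without IF 8 h replicate 3, DC 8 h replicate 2, IF 22 h replicate 3 and untreated replicate 2. Over the members, without untreated replicate 3 the counts called were 5, 5, 4 and 5, and without IF 22 h replicates 2 and 3 they were 5, 7, 3 and 6. Fos, Fosb, Jun and Junb fell in all 4 comparisons. The median log2 change of the 9 was -3.05, -1.24, -1.45 and -2.0 in that order, with fitted values of Batf3 and Atf3 that depend on the prior count, and -3.05, -1.85, -3.42 and -2.38 over the 7 others, where the median of all genes tested was 0.02, 0.04, 0.01 and 0.04. These 4 comparisons share the same untreated libraries, so their counts are not independent of each other.

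**Figure D3:**
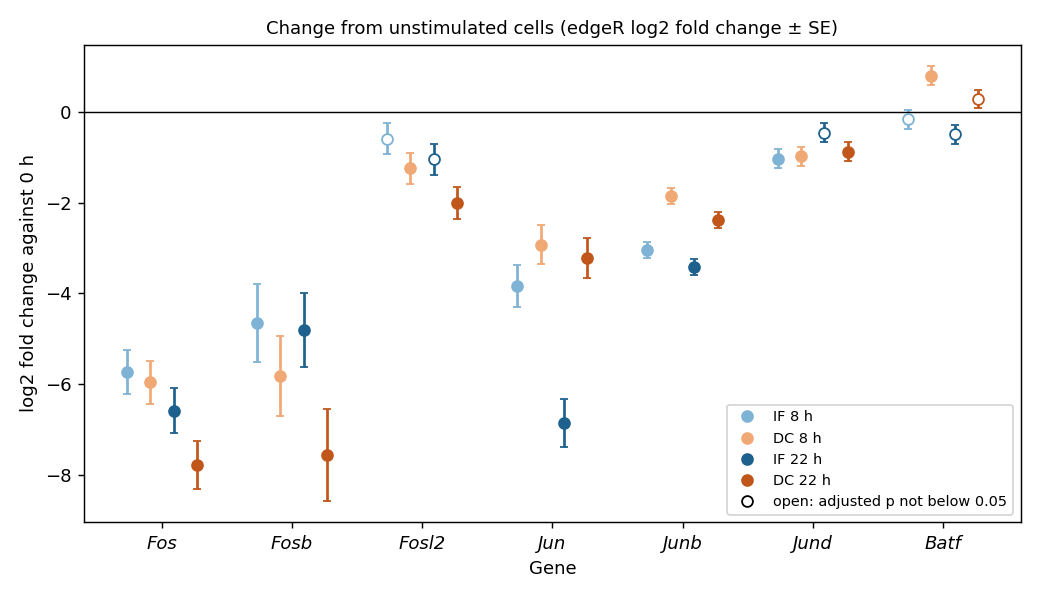
Log2 fold change against the 0 h cells on the y axis for 7 members on the x axis, with the SE as error bars and 1 colour for each stimulated group; open symbols did not pass the adjusted p of 0.05. Fos and Fosb lie at -4.65 or lower in all 4 groups, Jun in IF 22 h reaches -6.85, and Batf in DC 8 h is the filled symbol above 0.

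The 0 h libraries also held transcripts that are known to rise when tissue is dissociated and cells are handled. Of 33 tested early response genes on a list without the 9 members, 15 were lower and 1 higher in IF 8 h, 9 lower and 1 higher in DC 8 h, 18 lower and 2 higher in IF 22 h, and 18 lower and 1 higher in DC 22 h. Of all genes tested 4.72%, 4.07%, 3.44% and 4.35% were lower in that order. The list's median log2 change was -0.76, -0.45, -1.07 and -1.05, where that of all genes was 0.02, 0.04, 0.01 and 0.04. Dusp1, a phosphatase that switches off MAP kinases, was at 112, 124 and 206 CPM at 0 h and at 3.10 to 15.6 CPM in all stimulated libraries. Ppp1r15a, the stress-induced subunit that lets eIF2α be dephosphorylated, was at 325, 354 and 438 CPM at 0 h and at 12.9 to 66.1 CPM afterwards. Without untreated replicate 3 the list had 13, 10, 16 and 17 genes called, and without IF 22 h replicates 2 and 3 it had 6 called in IF 22 h. Among the 3 untreated libraries, Dusp1 and Ppp1r15a were highest in replicate 3, as were 8 of the 9 AP-1 and BATF genes.

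Heat shock genes split. Of 20 tested, 4, 3, 3 and 3 were lower in IF 8 h, DC 8 h, IF 22 h and DC 22 h, and 1 was higher in DC 22 h. Of all genes tested 4.72%, 4.07%, 3.44% and 4.35% were lower in that order, and the median changes of the list were 0.07, 0.12, 0.18 and 0.17. Those that fell in all 4 included the stress-inducible HSP70 genes Hspa1a and Hspa1b, near-identical copies whose reads the counting may have divided. Hspa1b was at 132, 238 and 365 CPM at 0 h and at no more than 1.11 CPM in any stimulated library, and Hspa1a was at 21.1, 47.0 and 81.5 CPM and then at no more than 0.297 CPM. Dnajb1, an HSP40 co-chaperone, went from 107 ± 22.2 CPM (SD, n = 3) at 0 h to 63.7 ± 11.9 CPM in IF 8 h and 56.1 ± 4.20 CPM in DC 22 h. Without untreated replicate 3 the heat shock genes called were 2, 2, 2 and 3. Handling at 0 h and a resting level before stimulation cannot be told apart in these groups. A bulk value also cannot tell fewer cells of a type from less RNA per cell.

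**Figure D4:**
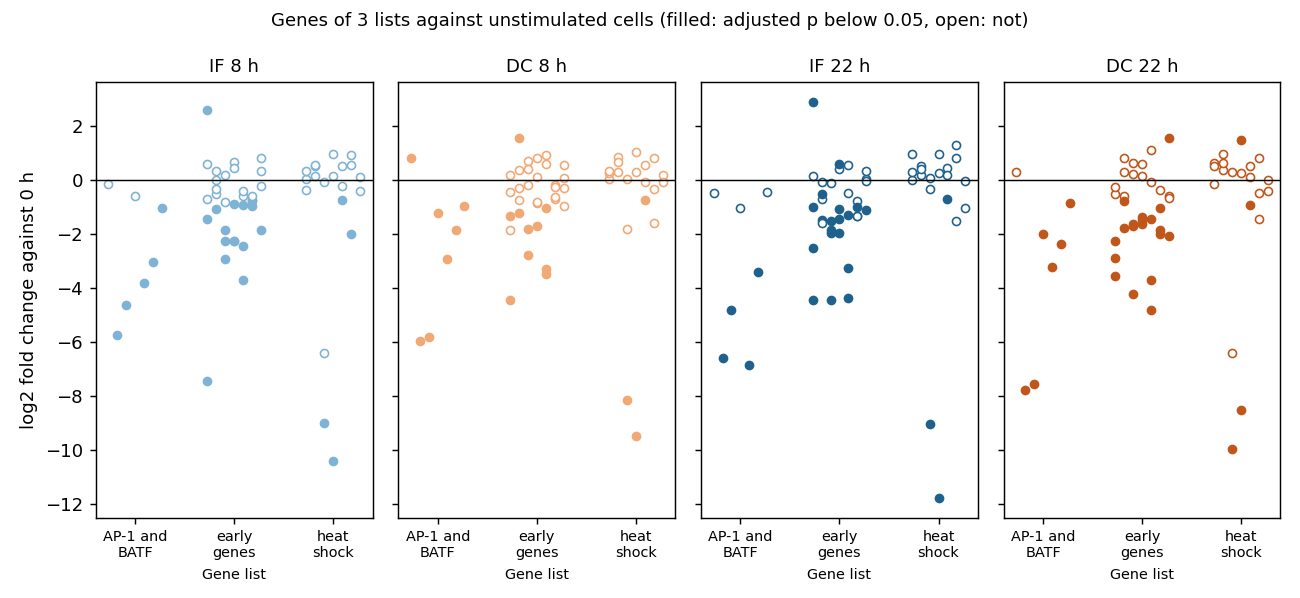
Log2 fold change against 0 h on the y axis for 7 members, 33 early response genes and 20 heat shock genes, with 1 panel for each stimulated group and 1 point for each gene; filled points passed the adjusted p of 0.05. Most filled points of the early genes lie below 0, and the filled points below -8 in the heat shock column are Hspa1a and Hspa1b, whose stimulated libraries lie near 0 counts.

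Markers of other cell types did not all move the same way in untreated replicate 3. Its dendritic cell markers summed to 1918 CPM against 1164 and 1074 CPM in the other untreated libraries, and its 5 neutrophil markers to 24.7 CPM against 7.78 and 5.78 CPM. The NK cell markers of replicate 3 summed to 518 CPM against 664 and 613 CPM. Its B cell markers summed to 19.8 CPM against 19.5 and 21.3 CPM. In stimulated libraries neutrophil markers were at 0 to 2.64 CPM and NK cell markers at 151 to 385 CPM. The part of these cells in the AP-1 values was not tested. Without replicate 3, Fos changed by -5.45 in IF 8 h and Jun by -3.58, and the calls of Fos, Fosb, Jun and Junb against 0 h held in all 4 comparisons.

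Between the stimuli at the same time, Junb was lower with IF than with DC at both times, Batf at 8 h and Jun at 22 h. At 8 h 2 of 9 members were called, both lower with IF, where 0.665% of all genes were called and 0.434% lower. Leaving out 1 library gave 27 (IF 8 h replicate 3) to 113 genes (DC 22 h replicate 2) in place of 72. Junb was lower with IF by a log2 difference of -1.19 ± 0.17 (adjusted p = 0.00144) and Batf by -0.96 ± 0.21 (adjusted p = 0.0425). Both genes had all 3 IF libraries below all 3 DC libraries. The Batf call was lost in 16 of 24 alternative settings, with adjusted p of 0.0559 to 0.182, and its difference then ran from -0.78 to -1.06. With the replicate number as a block it had an adjusted p of 0.0710. Dendritic cell markers moved in the same direction at 8 h, with 5 of 16 tested lower and 0 higher with IF, and at 22 h 2 were lower and 1 higher. Of 10 CD8 T cell markers, 1 was higher with IF at 8 h and 4 at 22 h, and 0 were lower. The part of other cells in the differences of Jun, Junb and Batf was not tested. Jun differed by -0.91 ± 0.42 (adjusted p = 0.571), although its IF libraries at 45.3 to 47.7 CPM lay below its DC libraries at 69.1 to 117 CPM. With no filter on low counts Jun was called (-0.92, adjusted p = 0.00916) and Batf was not (0.0669). Fos, Fosb, Fosl2 and Jund gave log2 differences of 0.23 ± 0.48, 1.17 ± 0.95, 0.65 ± 0.35 and -0.06 ± 0.21 at 8 h, with adjusted p from 0.686 to 0.989.

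At 22 h 2 of 9 members were called, again lower with IF, where 2.43% of all genes were called and 1.2% lower. That share rests on 263 genes, which became 759 without IF 22 h replicate 1, 99 and 90 without its replicates 2 and 3, and 119 without DC 22 h replicate 1. Jun was lower with IF by a log2 difference of -3.63 ± 0.47 (adjusted p = 0.000491), a 12.4-fold difference, and Junb by -1.04 ± 0.17 (adjusted p = 0.00246). The highest DC value of Jun, 135 CPM, was in replicate 2, which was the highest DC 22 h library for 7 of the 9 members. Without it the Jun difference was -2.77 and passed the threshold. Batf differed by -0.78 ± 0.20 (adjusted p = 0.0541) with no overlap of the libraries. Fos, Fosb and Fosl2 had positive differences of 1.20 ± 0.53, 2.76 ± 1.03 and 0.96 ± 0.35, and Jund of 0.42 ± 0.21, with adjusted p from 0.173 to 0.354. Fosb had 0, 13 and 0 counts in DC 22 h. Without replicate 2 of that group it was called (adjusted p = 0.0426) with both remaining DC libraries at 0, and Fosl2 was called without IF 22 h replicate 1 (1.23, adjusted p = 0.0369). With no filter on low counts Fos (adjusted p = 0.0144) and Fosb (1.01e-05) were called. Without IF 22 h replicates 2 and 3, whose mitochondrial rRNA was low, the differences were -3.19 for Jun (adjusted p = 0.147) and -1.07 for Junb (adjusted p = 0.187), in a fit with 1 IF 22 h library that is assumed to vary like the other groups and that called 8 genes in place of 263.

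**Figure D5:**
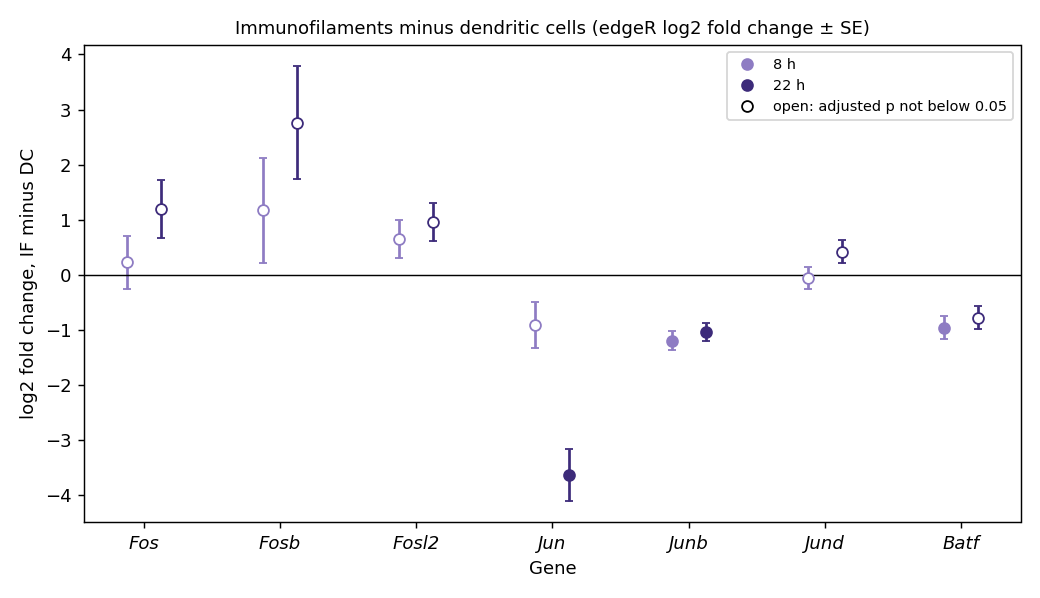
Log2 difference of immunofilaments minus dendritic cells on the y axis for 7 members at 8 h and 22 h, with the SE as error bars; open symbols did not pass the adjusted p of 0.05. Jun at 22 h lies at -3.63, Junb near -1 at both times, and the FOS genes lie above 0 with open symbols.

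From 8 h to 22 h, Jun changed with IF by -3.02 ± 0.46 on the log2 scale (adjusted p = 0.00735), the 1 member called where 1.12% of all genes were, 0.48% lower. Those 121 genes became 541 when IF 22 h replicate 1 was left out, 26 for its replicate 2 and 24 for its replicate 3. They became 52 when IF 8 h replicate 1 was left out, 25 for its replicate 3 and 216 for DC 22 h replicate 2. Without IF 22 h replicates 2 and 3 the change was -2.57 with an adjusted p of 0.522. Jund had a change with IF of 0.58 ± 0.21 (adjusted p = 0.202) and Junb of -0.37 ± 0.17 (adjusted p = 0.305), both with an unadjusted p under 0.05 and no overlap of libraries. Batf3, near the floor, also had an unadjusted p under 0.05. With DC 0 members were called by edgeR where 0.48% of all genes were, 0.102% lower. Leaving out 1 library gave 1 (DC 8 h replicate 1) to 138 genes (DC 22 h replicate 3) in place of 52. An unadjusted p under 0.05 was reached there by 4 members, all with negative changes: Fos (-1.82), Fosl2 (-0.76), Junb (-0.53) and Batf (-0.52). The share of all genes under this unadjusted threshold, or without overlap of libraries, was not counted for IF or for DC. These member counts therefore have no background. In DC 22 h against DC 8 h Fos was called by DESeq2 (adjusted p = 0.0197) and by edgeR with no filter on low counts (2.91e-05). Those settings called 210 and 251 genes in all. With only the groups compared, edgeR called 0 genes. Jun changed with DC by -0.30 ± 0.40 (adjusted p = 0.918). The test of whether the IF-DC difference itself moved between the times called 0 of 10831 genes with edgeR, 279 without IF 22 h replicate 1, 155 with no filter on low counts and 40 with DESeq2. Jun had an interaction of -2.72 ± 0.61 with an adjusted p of 0.178 and an unadjusted p of 0.000362, the 1 member below 0.05 unadjusted. DESeq2 gave it an adjusted p of 0.00385, edgeR with no filter on low counts 5.76e-11, and without IF 22 h replicate 1 edgeR gave -2.97 with 0.0201.

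Genes that act with these factors were read from lists chosen by function. The shares of all genes called, against which these counts are to be read, are 7.76%, 6.82%, 6.08% and 7.76% in IF 8 h, DC 8 h, IF 22 h and DC 22 h against 0 h. Of 9 partner factors, 4, 3, 3 and 3 were called in that order, 3, 1, 2 and 1 of them higher. Without untreated replicate 3 these were 4, 3, 2 and 2, and without IF 22 h replicates 2 and 3 the IF 22 h count was 1. Nfat5, an NFAT relative that responds to osmotic stress, rose in all 4, from 10.3 ± 1.00 CPM (SD, n = 3) at 0 h to means of 28.0 to 36.8 CPM. Irf4, the partner of BATF, was at 10.3, 11.6 and 14 CPM at 0 h, at 148, 99.1 and 147 CPM in IF 8 h and at 41.8, 128 and 27.6 CPM in DC 8 h. It rose in IF 8 h by 3.47 ± 0.77 on the log2 scale (adjusted p = 0.0115) and changed by 2.47 ± 0.74 in DC 8 h (adjusted p = 0.0568). The order of Irf4 at 8 h was unlike that of Batf, which was higher with DC, while the IF-DC difference of Irf4 was 1.00 ± 0.68 (adjusted p = 0.794). Nfatc1, which binds with AP-1, was higher with IF than with DC at 22 h by 1.18 ± 0.23 (adjusted p = 0.00926). Runx3, a factor of the CD8 lineage, was lower with IF at 22 h (-1.72 ± 0.28, adjusted p = 0.00315). Its IF 22 h libraries were at 65.1, 34.7 and 25.3 CPM and its DC 22 h libraries at 127, 118 and 164 CPM. The 2 lowest were replicates 2 and 3 of IF 22 h, which stood apart in mitochondrial rRNA.

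Known targets of AP-1, BATF or NFAT-AP-1 in T cells rose in part. Of 16 tested, 5, 3, 4 and 3 were higher in IF 8 h, DC 8 h, IF 22 h and DC 22 h, and 1 was lower at 22 h with each stimulus. The targets called were 5, 3, 4 and 4 without untreated replicate 3, and 2 in IF 22 h without its replicates 2 and 3. Tnfrsf9, the costimulatory receptor 4-1BB, was at 3.49 to 6.14 CPM at 0 h and at means of 173, 143, 154 and 97.3 CPM in those groups, and it was called in all 4. Cd69, an early activation marker that is also on the handling list, was at 229, 153 and 250 CPM at 0 h and was the target called lower at 22 h, with IF (-1.96 ± 0.29, adjusted p = 0.000575) and with DC (-1.64 ± 0.28, adjusted p = 0.00199). Gzmb, which encodes granzyme B, was lower with IF than with DC at 22 h (-2.96 ± 0.56, adjusted p = 0.00804). Its DC 22 h libraries were at 110, 591 and 187 CPM.

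Of 28 other bZIP factors tested, 5, 3, 4 and 5 were called against 0 h in the same order of groups, or 17.9%, 10.7%, 14.3% and 17.9% of the list. Bach2, a bZIP repressor that competes at AP-1 sites, rose in all 4, from 58.3 ± 12.8 CPM at 0 h to 187 ± 10.0 CPM in IF 8 h and 127 ± 15.9 CPM in DC 22 h (SD, n = 3). Cebpb, a bZIP factor induced by inflammatory signals, fell in all 4, from 37.2 ± 9.76 CPM to means of 7.61 to 14.4 CPM. Of 39 genes of signalling upstream of AP-1, 5, 2, 1 and 3 were called, or 12.8%, 5.13%, 2.56% and 7.69%. In GENCODE vM21 Bach2, Cebpb, Dusp1, Hspa1a, Icam1, Ppp1r15a, Slfn5 and Stat3 also overlap an exon of an opposite-strand gene. Map2k3, a kinase that activates p38, rose in IF 8 h (1.12 ± 0.27, adjusted p = 0.0175). Without untreated replicate 3, the counts became 2, 2, 2 and 0 for the other bZIP factors and 0, 1, 0 and 1 for upstream signalling.

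Early response genes did not all follow the members between the stimuli at 22 h. At 8 h 3 of 33 were lower and 0 higher with IF than with DC, where 0.665% of all genes were called. At 22 h 5 of 33 were higher and 5 lower with IF than with DC, where 2.43% of all genes were called. The values that follow are at 22 h. Egr1, a zinc finger factor induced through MAP kinases, was at 39.0, 47.0 and 47.7 CPM with IF and at 7.40, 15 and 8.89 CPM with DC (2.10 ± 0.31, adjusted p = 0.00114). Socs3, an inhibitor of cytokine signalling, went the other way, at 19.2, 13.6 and 15.3 CPM with IF and 104, 62.3 and 143 CPM with DC (-2.69 ± 0.30, adjusted p = 0.000133). Gadd45g, a stress sensor that activates the p38 and JNK pathways, was also lower with IF (-2.47 ± 0.34, adjusted p = 0.000849), as Jun and Junb were.

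For each member the genes nearest in pattern were found by the root mean square difference of log2 CPM over the 15 libraries, each gene centred on its own mean, among 10822 genes. Batf was nearest to Icam1, an adhesion receptor, at 0.20 and to Stat3, a cytokine-activated factor, at 0.23, where the SD of Batf itself was 0.45. Junb was nearest to Slfn5 at 0.48 and to Vim, which encodes vimentin, at 0.51 (own SD 1.21). Fosl2 was nearest to the early gene Ier2 at 0.40 (own SD 0.75). Fos was nearest to Hspa1a at 0.93, to Car1 at 1.02 and to Elane, a neutrophil granule gene, at 1.24 (own SD 2.74). Those 3 were present at 0 h, at 49.9, 22.6 and 5.22 CPM on average, and at no more than 0.180 CPM on average in any stimulated group. Jun was nearest to Ggt1 at 1.23 and to Ppp1r15a at 1.24 (own SD 2.22), and Fosb to Car1 at 1.58 (own SD 2.83). Among the members, Fosl2 and Jund were the closest pair at 0.62, and Fos and Fosb differed by 1.48. These measures are descriptions over libraries that share their depth and scaling, and the 15 libraries hold 5 groups.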

How the data were processed

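Bulk mRNA of 15 libraries was sequenced with an adapted CEL-seq protocol (barcoded oligo-dT primers, pooling, in vitro transcription), per the labels' protocols. The authors deposited whole-number counts per gene, without normalization. BWA and mm10 are named in the submitters' processing notes. The counting program, the annotation, and the use of strand and of molecular identifiers are not given in the sources used here, so the floor of 3 counts covers counting error only. Each SE was derived from the fit across libraries, as the absolute log2 fold change divided by the square root of the quasi-likelihood F statistic. It thus includes the spread between replicates. Of the 17493 genes, 370 had no count in any library.

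Differential expression was tested with edgeR 4.0.16 in R 4.3.3. Genes were kept by filterByExpr (minimum count 10, minimum total count 15), which left 10831 genes. Genes that failed held no more than 0.124% of any library. TMM factors ran from 0.857 to 1.11. All 15 libraries entered 1 quasi-likelihood fit, with a mean for each of the 5 groups. P-values are two-sided and Benjamini-Hochberg adjusted over the genes of a comparison, and calls need an adjusted p below 0.05. Log2 fold changes have a prior count of 0.125, and the likeness measure a prior count of 2. Each stimulated group was compared with 0 h, IF with DC at each time and 22 h with 8 h, and the interaction of stimulus and time was tested. Alternatives changed the scaling, the low-count filter, the tool (DESeq2 1.42.0), the libraries fitted, the replicate block and the depth, and left out libraries. The scripts were tested on simulated data. Pairs of replicates differed by more than sampling noise, with a chi-square per degree of freedom of 9.95 or more, so none was counted as a duplicate.

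The members and gene lists were chosen with earlier results of these data known. All 9 members are named. From each list the 3 genes with the smallest p among those called in a comparison could be named there, and a gene so named could be given in other comparisons. The lists were other bZIP factors, signalling upstream of AP-1, partner factors, known targets, early response genes and heat shock genes of handling. For each member the 3 genes nearest in pattern could be named. Upstream sequences are from RefSeq (GRCm38.p6), and shared exonic bases from GENCODE vM21. Figures were drawn in Python with matplotlib 3.10.9.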

Additional observations from a re-analysis of the deposited data

Results flagged for a closer look

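Batf moved to opposite sides of the untreated cells at 22 h: all 3 IF libraries, at 14 to 16.9 CPM, lay below the untreated range of 17.3 to 24.7 CPM, and all 3 DC libraries, at 25 to 27.0 CPM, lay above it. The direct difference of IF minus DC at 22 h was -0.78 ± 0.20 on the log2 scale (edgeR's quasi-likelihood test, adjusted p = 0.0541, unadjusted p = 0.0014). Neither stimulus alone was called against 0 h.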

How the results depend on the processing

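Results were recomputed under 24 alternatives, of which 21 or 22 gave a value for Batf3 and Atf3. The directions and calls of Fos, Jun and Junb against 0 h held in all 24 for all 4 groups, and those of Fosb in all but IF 22 h without IF 22 h replicates 2 and 3 (-4.82, adjusted p = 0.140). Leaving out 1 library at a time gave 5 to 5 members called for IF 8 h, 5 to 7 for DC 8 h, 4 to 4 for IF 22 h and 5 to 6 for DC 22 h against 0 h, and 1 to 2 for IF against DC at 8 h, 2 to 3 at 22 h, 1 to 1 for IF 22 h against IF 8 h, 0 to 0 for DC 22 h against DC 8 h and 0 to 1 for the interaction. IF against DC at 8 h gave 1 member in place of 2 with only the groups compared, with counts thinned to 1 depth, and without IF 22 h replicates 2 and 3. At 22 h it gave 4 with no filter on low counts and 0 without IF 22 h replicates 2 and 3, and IF 22 h against IF 8 h then gave 0. DC 22 h against DC 8 h gave 1 with no filter and with DESeq2, and so did the interaction. The lone IF 22 h library left in that alternative is assumed to vary like the other groups. Where a setting changed a call otherwise, the cause was not tested.

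Directions turned for results that were not called. Batf in IF 8 h was 0.087 with library size alone, Fosb in IF 22 h against IF 8 h was 0.12 with counts thinned, and the interaction of Fosl2 was -0.47 without IF 22 h replicates 2 and 3. Leaving out 1 library moved Fos in IF against DC at 8 h from -0.44 to 0.70 and Jund from -0.25 to 0.069, Fosb in IF 22 h against IF 8 h from -0.64 to 0.32, and Jun in DC 22 h against DC 8 h from -1.14 to 0.081 and Jund from -0.090 to 0.25. Scaling by library size alone moved the median of all genes against 0 h from 0.02, 0.04, 0.01 and 0.04 to 0.26, 0.30, 0.22 and 0.37 (IF 8 h, DC 8 h, IF 22 h, DC 22 h), and the genes called higher from 329 of 840 to 849 of 1113, 298 of 739 to 859 of 1079, 285 of 658 to 621 of 838 and 369 of 840 to 1354 of 1586. With that scaling Fosl2 in DC 8 h and Jund in DC 22 h missed the threshold (adjusted p = 0.0756 and 0.0738). In IF against DC at 22 h it moved that median from -0.02 to -0.15, and the genes called higher from 133 of 263 to 88 of 268. Batf in IF against DC at 22 h passed the threshold in 5 alternatives, with DESeq2 at 0.00753. The labels do not say whether a replicate number is the same animal in every group. The median correlation of same-numbered deviations was 0.01, 0.01 and -0.01 for numbers 1, 2 and 3, with a range over pairs of -0.19 to 0.40. Over 60 pairs with different numbers the median was -0.006 and the range -0.31 to 0.21. Of the 15 libraries, 9 correlated best with their own number among the 3 numbers. These values do not settle whether same-numbered libraries are paired. The fit with the replicate block gave 1 member for IF against DC at 8 h in place of 2, with Batf at an adjusted p of 0.0710, and called Fosl2 in IF 22 h against 0 h (0.0486), as DESeq2 and the fit with no low-count filter did. For Batf3 and Atf3, at 0 to 26 counts a library, depth limits what can be seen.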
